A study of Mus musculus with 12 samples.

Results

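Acta2, Lrrc15, Lrrc17, Cthrc1 and Fap are 5 genes used as markers of the activated fibroblasts, or myofibroblasts, of healing wounds, and their messenger RNA was followed in mouse skin fibroblasts over the first 3 d after injury. They are 5 of the 25239 genes in the count table and were taken by symbol. Acta2, Lrrc15, Cthrc1 and Fap were chosen by name as known markers, though with earlier results of these libraries known. Lrrc17 was selected on its measured increase between 16 h and 1.5 d in these libraries. Its values at those times are therefore given as a description, without a test. All 5 passed the filter on low counts, and 14901 genes were tested.

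The cells came from the back skin of wild type male C57BL/6 mice, 8 weeks old. Skin was unwounded (NW) or was taken 16 h, 1.5 d or 3 d after 4 mm full-thickness punch wounds, with 3 mice and so 3 libraries in each group. From digested skin, live cells lacking CD45 (white blood cells) and CD31 (endothelium) and carrying SCA1 (the surface protein encoded by Ly6a) were sorted, so every library, NW included, represents SCA1+ cells only, and fibroblasts without SCA1 were not measured. Library totals were 26389453 to 43493475 counts, at which 3 counts are worth 0.069 to 0.114 CPM, the unit of counts scaled to library size. Levels below are CPM scaled by the trimmed mean of M-values (TMM), or TPM, which is also divided by transcript length, where levels of different genes are compared.

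A myofibroblast is a fibroblast that has taken on contractile filaments and a high output of collagen and other matrix, and it draws wound edges together and lays down granulation tissue. Transforming growth factor beta (TGF-beta) and mechanical tension are its best known inducers, the first through SMAD proteins and the second through serum response factor (SRF) with its MRTF cofactors and through YAP and TEAD proteins. Among the 5 genes, Acta2 encodes alpha smooth muscle actin, the filament protein by which myofibroblasts are usually recognised, which vascular smooth muscle and pericytes also make. Lrrc15 encodes a leucine-rich repeat protein of the cell surface found on activated fibroblasts and known to be induced by TGF-beta. Lrrc17 and Cthrc1 encode secreted proteins: Cthrc1 was first described in injured arteries, and Lrrc17 is known in mouse as an inhibitor of osteoclast formation. Fap encodes fibroblast activation protein, a membrane serine protease related to dipeptidyl peptidase 4.

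The RefSeq promoter table matched 3 of the 5 genes, Acta2, Lrrc15 and Lrrc17, and did not match Cthrc1 and Fap. All 3 that matched are shown, because the inducers named above act through short DNA motifs. Each sequence runs 5′ to 3′ on the gene's strand over the 250 bases before and the 50 bases after the RefSeq start (GRCm38.p6), at chr19:34255324-34255623 (minus strand) for Acta2, chr16:30283205-30283504 (minus strand) for Lrrc15 and chr5:21543277-21543576 (plus strand) for Lrrc17. Capitals mark matches to the motifs searched.
Acta2: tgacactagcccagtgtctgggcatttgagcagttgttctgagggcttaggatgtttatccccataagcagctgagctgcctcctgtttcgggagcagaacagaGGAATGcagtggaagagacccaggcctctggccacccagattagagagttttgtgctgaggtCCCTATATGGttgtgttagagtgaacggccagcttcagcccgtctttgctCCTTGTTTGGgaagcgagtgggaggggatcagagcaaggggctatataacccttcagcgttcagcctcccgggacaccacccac
Lrrc15: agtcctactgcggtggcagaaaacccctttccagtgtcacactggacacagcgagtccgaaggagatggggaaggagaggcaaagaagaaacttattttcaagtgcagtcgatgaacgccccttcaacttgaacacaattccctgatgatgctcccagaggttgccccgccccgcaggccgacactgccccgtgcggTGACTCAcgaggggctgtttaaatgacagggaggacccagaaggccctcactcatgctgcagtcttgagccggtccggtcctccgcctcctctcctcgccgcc
Lrrc17: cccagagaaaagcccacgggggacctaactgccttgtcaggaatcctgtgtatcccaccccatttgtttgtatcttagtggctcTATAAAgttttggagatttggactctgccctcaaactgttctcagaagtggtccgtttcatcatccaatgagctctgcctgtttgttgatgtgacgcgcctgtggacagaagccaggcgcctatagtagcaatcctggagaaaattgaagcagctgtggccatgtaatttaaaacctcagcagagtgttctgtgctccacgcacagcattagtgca

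The motifs searched on both strands were the CArG box bound by SRF, whose core holds A or T alone, the same box with 1 G or C among its 6 core bases, the TEAD motif CATTCC, the AP-1 motif TGANTCA, the SMAD palindrome GTCTAGAC, together with the element TATAAA. The Acta2 window held 2 boxes of the relaxed CArG form, CCCTATATGG starting 84 bases before the start site and CCTTGTTTGG starting 34 bases before it. Of 32817 promoter windows of the same length, 8.5% held at least 1 such box and 0.68% at least 2. Acta2 also held the TEAD motif on the opposite strand (GGAATG) starting 146 bases before the start site, as did 14.7% of all windows. In Lrrc15 an AP-1 motif, TGACTCA, started 53 bases before the start site, and 7.81% of windows held one. The single match in Lrrc17 was TATAAA starting 166 bases before the start site, present in 13.6% of windows. The strict CArG box (1.63% of windows) and the SMAD palindrome (0.213%) were not found in these 3 windows. A match is a string of letters and was not examined for binding.

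Acta2 was low in unwounded skin and high at 3 d. Its level was 11.3, 8.82 and 5.51 CPM in the NW libraries (mean 8.53 ± 2.89, SD, n = 3), 6.90, 5.48 and 3.39 CPM at 16 h, 80.0, 29.6 and 27.5 CPM at 1.5 d, and 234.7, 199.6 and 362.2 CPM at 3 d (265.5 ± 85.6, SD, n = 3). The NW and 16 h libraries overlapped, every 1.5 d library lay above both, and every 3 d library lay above every 1.5 d library. At 1.5 d the first library stood apart from the other two, which gave that group a coefficient of variation of 65.1%, against a median of 22.3% over genes of at least 20 CPM. The actin was 31.2-fold higher at 3 d than in NW (log2 change 4.96, approximate SE 0.494, edgeR adjusted p = 3.62e-05). It was 5.36-fold higher at 1.5 d than in NW (log2 change 2.42, SE 0.443, edgeR adjusted p = 0.00200). At 16 h against NW its log2 change was −0.70 (SE 0.431, edgeR adjusted p = 0.261), which did not pass the threshold of 0.05. Without 1.5 d replicate 1, the log2 change at 1.5 d against NW was 1.75 (edgeR adjusted p = 0.00532).

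Lrrc15 had the largest change of the 5 genes between NW and 3 d. It was at 8.24, 7.43 and 1.59 CPM in NW (5.76 ± 3.63, SD, n = 3), at 4.54, 9.49 and 2.28 CPM at 16 h, at 35.1, 48.9 and 59.3 CPM at 1.5 d, and at 679.5, 777.2 and 342.3 CPM at 3 d (599.7 ± 228, SD, n = 3). Like Acta2, it did not separate 16 h from NW, and the 1.5 d and 3 d groups each lay wholly above the group before. Against NW it was 104.3-fold higher at 3 d (log2 change 6.70, SE 0.698, edgeR adjusted p = 4.91e-05) and 8.30-fold higher at 1.5 d (log2 change 3.05, SE 0.594, edgeR adjusted p = 0.00283). At 16 h the log2 change against NW was −0.08 (SE 0.563, edgeR adjusted p = 0.941), and its sign differed between alternatives, with 0.065 under limma-voom and −0.75 without 16 h replicate 2. Ranked by log2 change at 3 d against NW, from the largest increase down, Lrrc15 was in place 232 of the 14901 genes tested. Acta2 was in place 389, Cthrc1 in place 612, Lrrc17 in place 906 and Fap in place 1776.

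Cthrc1 was the member already higher at 16 h. Its level was 122.6, 71.0 and 62.5 CPM in NW (85.4 ± 32.5, SD, n = 3), 139.1, 181.9 and 246.4 CPM at 16 h, 460.3, 209.6 and 281.5 CPM at 1.5 d, and 950.8, 817.3 and 1048 CPM at 3 d (938.6 ± 116, SD, n = 3). All 16 h libraries lay above all NW libraries, the 16 h and 1.5 d groups overlapped, and the 3 d libraries lay above the rest. The gene was 2.22-fold higher at 16 h than in NW (log2 change 1.15, SE 0.330, edgeR adjusted p = 0.0226). That call was lost when NW replicate 2 or 3 or 16 h replicate 2 or 3 was left out, with adjusted p up to 0.0851. It was 3.71-fold higher at 1.5 d than in NW (log2 change 1.89, SE 0.336, edgeR adjusted p = 0.00167) and 10.99-fold higher at 3 d than in NW (log2 change 3.46, SE 0.358, edgeR adjusted p = 4.76e-05).

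Lrrc17 had its lowest level at 16 h and its highest at 3 d. It stood at 99.2, 83.1 and 72.5 CPM in NW, at 10.7, 16.9 and 12.4 CPM at 16 h, at 166.0, 180.6 and 228.0 CPM at 1.5 d, and at 518.5, 478.0 and 411.9 CPM at 3 d. The 4 groups did not overlap: the 16 h libraries were below NW, and the 1.5 d and 3 d libraries each above every group before. As a description, its mean was 6.37-fold lower at 16 h than in NW and 14.4-fold higher at 1.5 d than at 16 h, the interval for which it was chosen, where the other members were between 1.68-fold (Cthrc1) and 8.76-fold (Lrrc15) higher on the fitted scale. The contrast of 3 d with NW uses neither of those groups. Lrrc17 averaged 469.5 ± 53.8 CPM at 3 d and 84.9 ± 13.4 CPM in NW (SD, n = 3 each), a 5.53-fold increase (log2 change 2.47, SE 0.229, edgeR adjusted p = 2.88e-05).

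Fap fell at 16 h and was above its unwounded level at 1.5 d and 3 d, over a smaller range than the other members. The protease was at 34.5, 15.8 and 21.6 CPM in NW (24.0 ± 9.57, SD, n = 3), 4.30, 9.88 and 12.9 CPM at 16 h (9.04 ± 4.38), 55.2, 53.5 and 45.1 CPM at 1.5 d, and 60.4, 81.1 and 52.0 CPM at 3 d (64.5 ± 14.98). All 16 h libraries were below all NW libraries, and both later groups were above NW but overlapped each other. At 16 h it was 2.65-fold lower than in NW (log2 change −1.41, SE 0.376, edgeR adjusted p = 0.0163), a call lost without NW replicate 1 (adjusted p = 0.0747) and when only the 16 h and NW libraries were fitted (adjusted p = 0.0503). It was 2.69-fold higher at 3 d than in NW (log2 change 1.43, SE 0.374, edgeR adjusted p = 0.0165), lost without NW replicate 2 or 3 or 3 d replicate 2, with adjusted p up to 0.0657. The 2.14-fold increase at 1.5 d over NW was nearest to the threshold (log2 change 1.10, SE 0.371, edgeR adjusted p = 0.0464). It was lost without NW replicate 2 or 3, 16 h replicate 2, or any 1.5 d or 3 d library, with adjusted p up to 0.145, and under DESeq2 size factors (adjusted p = 0.0511).

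**Figure D1:**
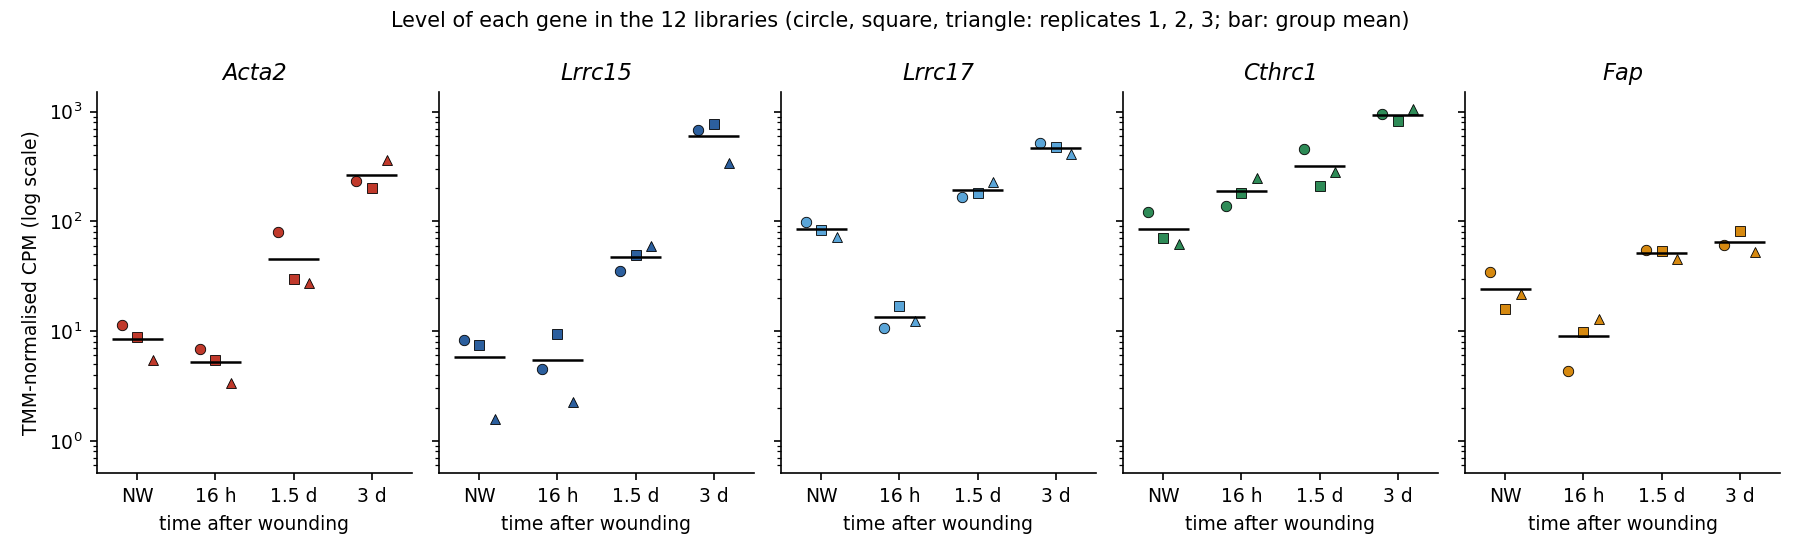
Level of each of the 5 genes in every library, in TMM-scaled CPM on a log axis, for NW, 16 h, 1.5 d and 3 d (3 libraries each, with the group mean as a bar). Acta2 and Lrrc15 sit under 12 CPM in NW and at 16 h and between 199.6 and 777.2 CPM at 3 d, while Lrrc17 and Fap are lowest at 16 h and Cthrc1 is not.

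In the comparisons with NW, which share the 3 NW libraries and are therefore not independent, the members' calls were read against all genes tested. At 3 d all 5 members tested were called higher, where 12.0% of genes tested were called higher, 9.15% lower and 21.1% in either direction. Of the 4 members tested at 1.5 d, all were called higher, where 13.7% of genes tested were called higher, 10.8% lower and 24.5% in either direction. At 16 h 1 of 4 members was called higher (Cthrc1) and 1 lower (Fap), where 13.5% of genes tested were called higher, 11.2% lower and 24.7% in either direction. Since the markers were chosen with results of these libraries known, these shares are given beside the counts and are not a test of the members as a group.

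**Figure D2:**
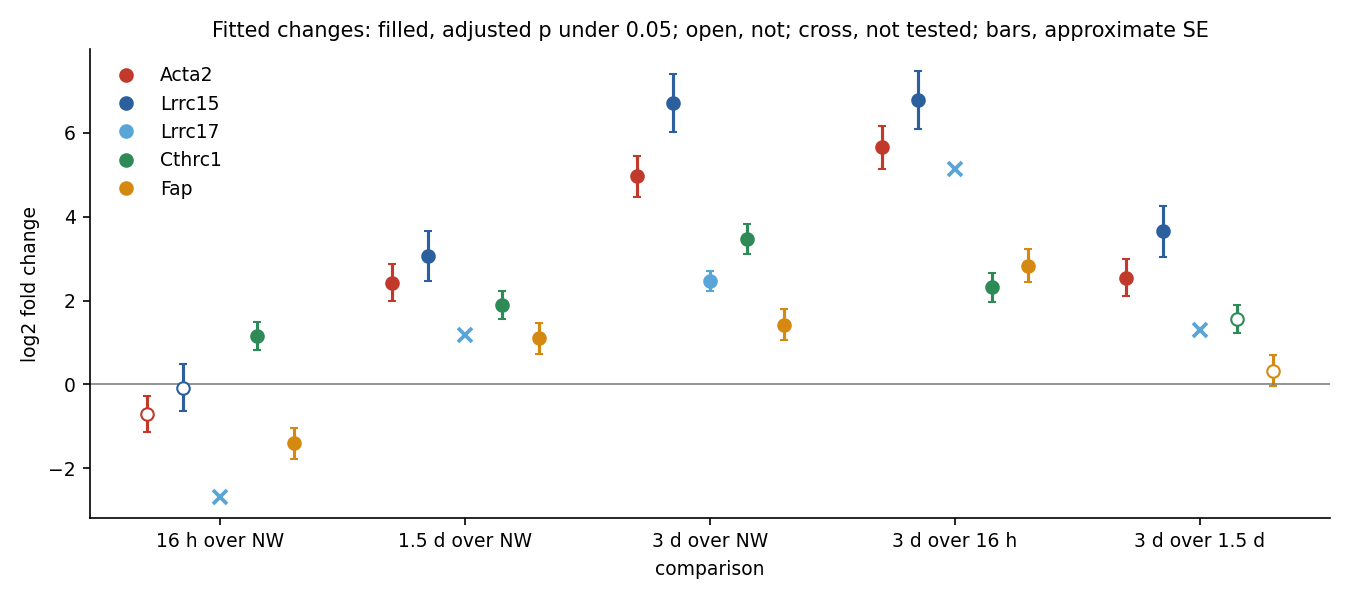
Fitted log2 change of each gene in 5 comparisons (first group over second), with approximate standard errors as bars. Filled circles passed an adjusted p of 0.05, open circles did not, and crosses mark Lrrc17 where it was not tested. The 5 changes at 3 d over NW are above 0, from 1.43 for Fap to 6.70 for Lrrc15, whereas at 16 h over NW they run from −2.67 for Lrrc17 to 1.15 for Cthrc1.

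Within the wounded groups, Acta2 and Lrrc15 went on increasing after 1.5 d. Of the 14901 genes, edgeR called 0.101% higher and 0.0403% lower at 3 d than at 1.5 d (0.141% in either direction), and Acta2 and Lrrc15 were among these few. The size of that set depended on the tool. It was 21 genes by edgeR (2 to 29 with a library left out), 195 by DESeq2 and 74 by limma-voom. Acta2 was 5.82-fold higher at 3 d than at 1.5 d (log2 change 2.54, SE 0.440, edgeR adjusted p = 0.0457) and Lrrc15 12.6-fold higher (log2 change 3.65, SE 0.601, edgeR adjusted p = 0.0327). Both calls lay close to the threshold. That of Acta2 was lost without NW replicate 1 or 2, 16 h replicate 1 or 2, 1.5 d replicate 2 or 3, or any 3 d library (adjusted p up to 0.167), and when only the 3 d and 1.5 d libraries were fitted (adjusted p = 0.0784), while without 1.5 d replicate 1 its log2 change was 3.22 (adjusted p = 0.0193). That of Lrrc15 was lost without NW replicate 1, 16 h replicate 1, any 1.5 d library, or 3 d replicate 1 or 2 (adjusted p up to 0.157), and without a filter on low counts (adjusted p = 0.0597).

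Cthrc1 and Fap were not called between 3 d and 1.5 d. For Cthrc1 the log2 change was 1.57 (SE 0.333, edgeR adjusted p = 0.0988) with no overlap between the groups, and the call was made by DESeq2 (adjusted p = 0.000785), by limma-voom (adjusted p = 0.0297) and by edgeR without the filter on low counts (adjusted p = 0.0401). For Fap it was 0.33 (SE 0.366, edgeR adjusted p = 0.936). The mean of Fap at 1.5 d was 79.5% of its 3 d mean, against 40.8% for Lrrc17, 33.8% for Cthrc1, 17.2% for Acta2 and 7.96% for Lrrc15. The differences between these percentages were not tested.

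Against 16 h, all 4 members tested were called higher at 3 d, where 5.86% of genes tested were called higher, 3.67% lower and 9.53% in either direction. Lrrc15 was 110-fold higher (log2 change 6.78, SE 0.700, edgeR adjusted p = 0.000132) and Acta2 50.4-fold higher (log2 change 5.66, SE 0.511, edgeR adjusted p = 5.51e-05). Fap was 7.13-fold higher (log2 change 2.83, SE 0.394, edgeR adjusted p = 0.000836) and Cthrc1 4.96-fold higher (log2 change 2.31, SE 0.341, edgeR adjusted p = 0.00126). Without 16 h replicate 2, the log2 change of Lrrc15 was 7.46 (adjusted p = 0.000644). As a description, Lrrc17 was 35.2-fold higher.

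**Figure D3:**
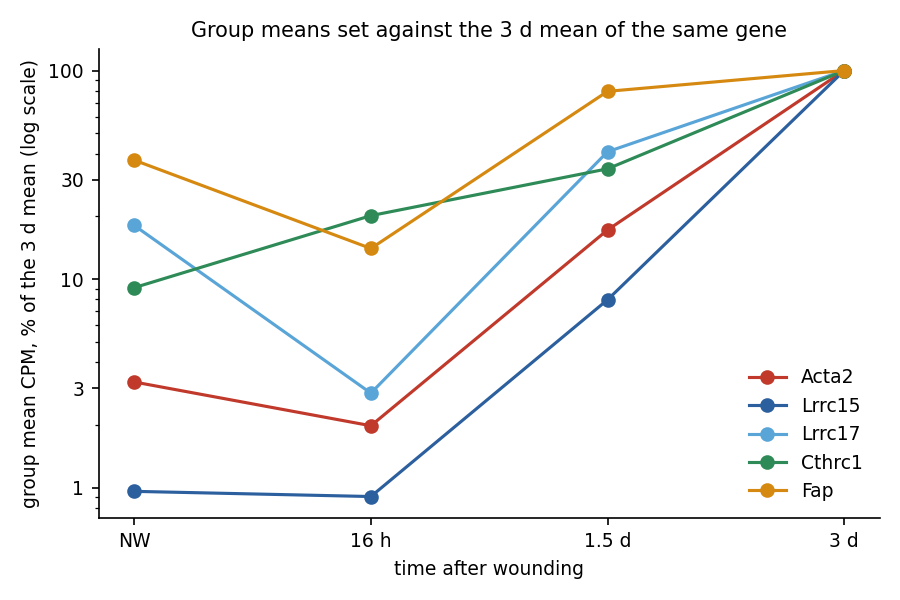
Group means of each gene as a percentage of its own 3 d mean, over NW, 16 h, 1.5 d and 3 d. At 1.5 d the means lie between 7.96% for Lrrc15 and 79.5% for Fap, and in NW between 0.960% for Lrrc15 and 37.2% for Fap.

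Compared per length, Cthrc1 was the most abundant of the 5 transcripts in every group, and Fap the least abundant at 3 d. The mean of Cthrc1 was 182.2 (NW), 421.3 (16 h), 650.8 (1.5 d) and 2024 TPM (3 d), when it was the transcript with the 52nd highest mean TPM of the 25239 genes. In NW, at 16 h and at 1.5 d the order of mean TPM was Cthrc1, Lrrc17, Fap, Acta2 and Lrrc15. At 3 d it was Cthrc1, Lrrc17 (540.9), Lrrc15 (285.9), Acta2 (259.0) and Fap (60.3). Lrrc15 and Acta2 did not differ beyond their spread at 3 d, since their libraries ranged from 159.4 to 377.5 TPM for Lrrc15 and from 200.1 to 348.1 TPM for Acta2. Together the 5 genes made up 3025 to 3244 TPM in the 3 d libraries and 247.9 to 423.7 TPM in the NW libraries.

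The mice at 3 d were not ordered alike by Lrrc15 and Acta2. Replicate 3 had both the lowest Lrrc15 (342.3 CPM) and the highest Acta2 (362.2 CPM) of the group. Lrrc17 and Cthrc1 varied less between these mice, with coefficients of variation of 11.5% and 12.3%, against 38.1% for Lrrc15, 32.2% for Acta2, 23.2% for Fap and a median of 19.95% over genes of at least 20 CPM. Marker genes of keratinocytes, the epidermal cells, took 0.0888%, 0.807% and 1.46% of the counts in 3 d replicates 1, 2 and 3, and their part in this difference was not tested.

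In bulk libraries such as these, more cells that express a gene and more RNA of it per cell cannot be told apart. Whether Acta2 moved with other cells that make it was looked at with 12 genes of mural cells, the pericytes and smooth muscle of vessels. Their summed level was 296.7 to 340.4 CPM in NW, 36.2 to 65.7 CPM at 16 h, 50.01 to 80.2 CPM at 1.5 d and 166.2 to 233.9 CPM at 3 d. Ndufa4l2, named after its values were seen, made up a large share of the sum in NW and at 3 d, at 89.3 to 147.9 CPM at 3 d and 193.02 to 285.7 CPM in NW. Without it, in a sum added after the data were seen, the other 11 genes made 54.7 to 103.7 (NW), 25.2 to 45.1 (16 h), 29.6 to 42.2 (1.5 d) and 70.9 to 120.998 CPM (3 d), and the 3 d and NW libraries overlapped. The part of mural cells in the 3 d level of Acta2 was not tested. At 3 d against NW, 1 of the 11 mural genes tested was called higher (Rgs4, named after its values were seen, at 11.7 and 0.427 CPM) and 0 lower by edgeR. The shares of all genes were 12.0% higher and 9.15% lower. At an unadjusted p under 0.05, with DESeq2 and with limma-voom alike, 2 were higher and 2 lower, and leaving out a library moved the edgeR counts to 2 higher (without NW replicate 1 or 3) and 1 lower (without 1.5 d replicate 1 or 3 or 3 d replicate 3). The defining mural genes were few in counts. At 3 d and in NW the means were 1.52 and 5.02 CPM for Rgs5, 13.5 and 10.6 CPM for Cspg4, and 6.90 and 16.7 CPM for Notch3. They were 0.714 and 1.13 CPM for Myh11, and 18.6 and 12.2 CPM for Des. In edgeR 0 of these 5 passed (adjusted p from 0.0644 to 0.810), and 1, Notch3, was lower at an unadjusted p under 0.05, with DESeq2 and with limma-voom. At 16 h Myh11 and Higd1b, 2 of the 12, had no counts in any of the 3 libraries. Between 3 d and 1.5 d the mural sum was higher together with Acta2, with no overlap, and between 3 d and 16 h likewise, with and without Ndufa4l2, and its part in those 2 differences was not tested. At 3 d against 16 h, edgeR called 3 of the 11 mural genes higher and 0 lower, beside 5.86% and 3.67% of all genes. At 3 d against 1.5 d it called 0, beside 0.141% of all genes. At 16 h against NW it called 1 higher and 5 lower, beside 13.5% and 11.2% of all genes.

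**Figure D4:**
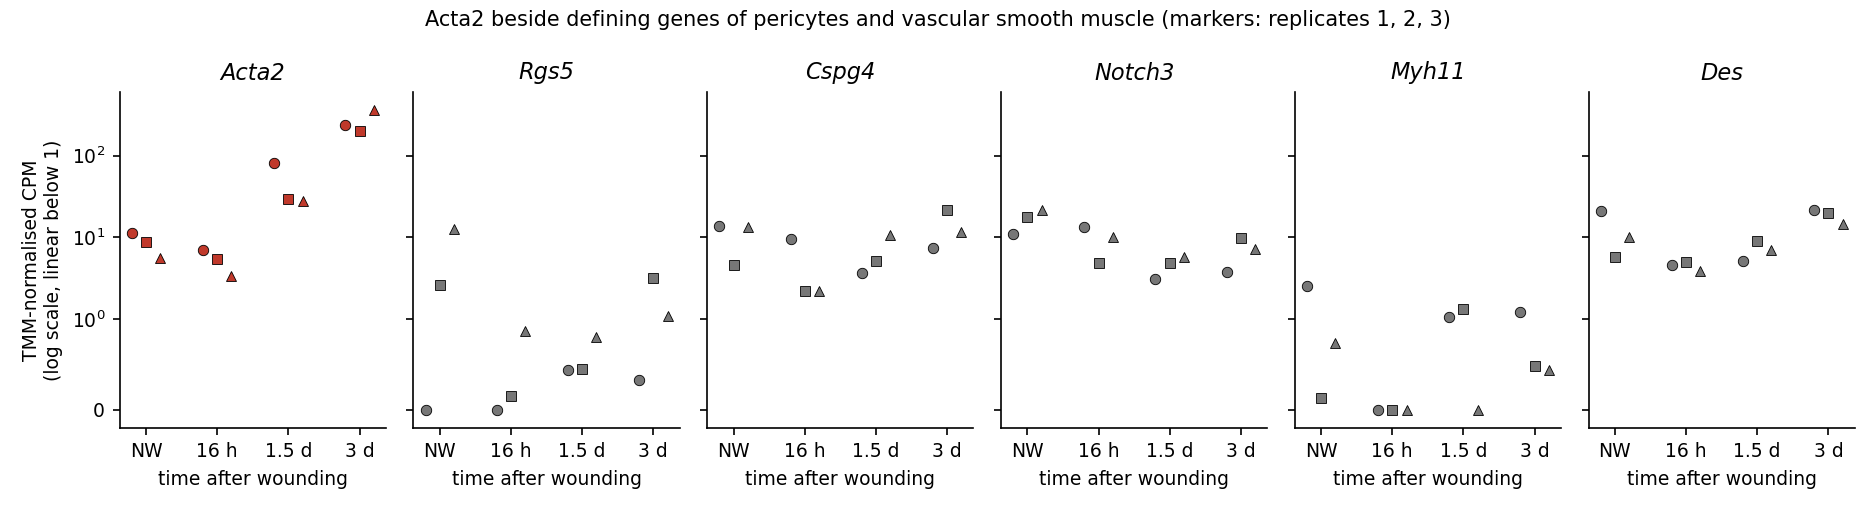
Level of Acta2 and of the defining mural genes Rgs5, Cspg4, Notch3, Myh11 and Des in each of the 12 libraries (markers for the 3 replicates), in TMM-scaled CPM on an axis that is logarithmic above 1 and linear below. Acta2 lies at 199.6 to 362.2 CPM at 3 d and at 5.51 to 11.3 CPM in NW, while the mean of Des is 18.6 CPM at 3 d and 12.2 CPM in NW and Myh11 has no counts at 16 h.

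Of the markers of other cell types, those of keratinocytes were the highest. Keratinocyte genes took 1.97% to 4.01% of counts in NW, 0.926% to 1.53% at 16 h, 0.459% to 0.797% at 1.5 d and 0.0888% to 1.46% at 3 d, and thus varied across the same groups as the members, and their part in the members' changes was not tested. Summed leukocyte genes stayed at or below 104.8 CPM and skeletal muscle genes at or below 20.6 CPM in every library. Of 9 leukocyte genes tested, 4 were called higher and 1 lower at 16 h against NW, beside 13.5% and 11.2% of all genes. At 3 d against NW 2 were called higher and 0 lower, beside 12.0% and 9.15%, and their part in the members' changes was not tested. Endothelial genes summed to 15.9 to 55.6 CPM at 3 d and 67.3 to 109.7 CPM in NW. The sorted identity was visible in Ly6a, which averaged 1053 (NW), 1514 (16 h), 2020 (1.5 d) and 1091 CPM (3 d), and in 8 general fibroblast genes, which took 2.84% to 12.9% of the counts of each library.

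Reads of the members could be confused with those of other genes to a limited extent. Acta2 (mm10, chromosome 19, 34240336 to 34255373, minus strand, 9 exons) shares no exon base with another gene, but Stambpl1 of the other strand ends 2 bases from it. Stambpl1 averaged 32.6 CPM at 3 d and 41.3 CPM in NW and did not pass the test (edgeR adjusted p = 0.390). Of the stretches of 50 bases in Acta2 transcripts, 0.326% also occur in transcripts of other genes, among them Actg1. Among the other actins, Actg1, cytoplasmic gamma actin, averaged 1114 CPM at 3 d and 1976 CPM in NW (log2 change −0.83, edgeR adjusted p = 0.0343, lost without NW replicate 2, 16 h replicate 2 or any 3 d library, with adjusted p up to 0.135). Actb, beta actin, averaged 5108 CPM at 3 d and 3351 CPM in NW (log2 change 0.61, edgeR adjusted p = 0.117). The smooth and striated muscle actins Actg2, Acta1 and Actc1 stayed at mean levels of 5.27 CPM or less in every group.

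Lrrc15 (chromosome 16, 30269302 to 30283254, minus strand, 2 exons) and Cthrc1 (chromosome 15, 39076932 to 39087121, plus strand, 4 exons) share no exon base with other genes. Lrrc17 (chromosome 5, 21543527 to 21575902, plus strand, 4 exons) lies inside Fbxl13, a gene of the opposite strand, and 60 of its 2188 exon bases, 2.74%, also belong to Fbxl13. Mean Fbxl13 levels over the groups in order of time were 1.47, 0.534, 4.32 and 6.49 CPM, beside 84.9, 13.3, 191.5 and 469.5 CPM for Lrrc17. Because the libraries do not keep strand, a fragment from either gene that covers exon bases of Fbxl13 alone counts as Fbxl13. The 2 sources of the low Fbxl13 counts cannot be told apart. Fap (chromosome 2, 62500936 to 62574021, minus strand, 26 exons) shares 0.526% of its 50-base stretches with other genes.

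The genes whose course was most like each member's were sought among 7775 genes of at least 20 CPM in some group, by Pearson's r of log2 CPM over the 12 libraries. These 12 points fall into 4 groups, so a high r describes a shared course over time and carries no test. Among the members themselves r was highest for Acta2 with Lrrc15 (0.949) and for Lrrc17 with Fap (0.935), and lowest for Lrrc17 with Cthrc1 (0.615) and Cthrc1 with Fap (0.625). Lrrc15 (0.949) was itself among the 5 nearest genes of Acta2, after Crtap (0.957), a part of the collagen prolyl 3-hydroxylation complex, and Serpinb9 (0.952), a granzyme inhibitor. Gpx7 (0.949) and Prdx4 (0.948), peroxide-reducing enzymes of the endoplasmic reticulum, came next. Crtap averaged 275.5 CPM at 3 d and 140.7 CPM in NW, a far smaller difference than that of Acta2.

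For Lrrc15 the nearest genes were Dbn1 (0.967), an actin-binding protein, Tnn (0.966), a tenascin of the matrix, Lamb1 (0.958), a laminin chain of basement membranes, Prokr2 (0.956), a receptor for prokineticins, and Thbs2 (0.954), a matrix thrombospondin. Mean levels in NW, 16 h, 1.5 d and 3 d libraries were 3.75, 5.24, 13.02 and 134.7 CPM for Tnn and 315.3, 444.6, 991.7 and 2708 CPM for Thbs2. Prokr2 had no counts in NW and averaged 31.2 ± 22.7 CPM at 3 d (SD, n = 3), at least 888.5-fold higher with a floor of 3 counts over the NW group. For Lrrc17 they were Dap (0.988), P4ha2 (0.978), a subunit of collagen prolyl 4-hydroxylase, Tmem119 (0.975), a membrane protein known in osteoblasts and microglia, Mxra8 (0.974), a cell adhesion protein, and Sfrp2 (0.973), a secreted modulator of Wnt signalling. Sfrp2 shared the low point at 16 h, with means of 280.9 (NW), 35.6 (16 h), 424.5 (1.5 d) and 1374 CPM (3 d).

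For Cthrc1 the nearest were Cnn3 (0.977), a calponin, Chst2 (0.974), a carbohydrate sulfotransferase, Dcakd (0.952), Nt5dc2 (0.951) and Col12a1 (0.943), a fibril-associated collagen. Col12a1 averaged 29.4 (NW), 87.9 (16 h), 178.3 (1.5 d) and 629.9 CPM (3 d). For Fap they included Azin2 (0.949), an antizyme inhibitor of polyamine metabolism, Orai3 (0.945), a calcium channel, and Fkbp14 (0.944), a prolyl isomerase of the endoplasmic reticulum. Ranking by Spearman's rho kept 0 of the 5 genes for Acta2, 2 for Lrrc15, 1 for Lrrc17, 3 for Cthrc1 and 1 for Fap, so the lists are not stable to that choice.

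Among 26 other matrix genes of myofibroblasts, 17 were called higher and 1 lower at 3 d against NW, with a median log2 change of 1.89. Of all genes tested, 12.0% were called higher and 9.15% lower in that comparison, with a median of 0.00. At 16 h against NW, 8 of the 26 were called higher and 6 lower, with a median log2 change of −0.17, where 13.5% of all genes were called higher and 11.2% lower. Postn, the matricellular protein periostin, averaged 367.1 (NW), 637.9 (16 h), 1243 (1.5 d) and 5394 CPM (3 d), and was 14.7-fold higher at 3 d than in NW (edgeR adjusted p = 1.28e-05). Adam12, a membrane metalloprotease, was 91.8-fold higher at 3 d than in NW, at 347.1 and 3.78 CPM (edgeR adjusted p = 5.64e-06). Adam12 and the network collagen Col8a1 were among the 8 called higher at 16 h, at 132.4 and 3.78 CPM for Adam12 (edgeR adjusted p = 1.04e-05) and at 431.5 and 25.8 CPM for Col8a1 (edgeR adjusted p = 1.04e-05). Whether their 16 h changes differ from those of the members was not tested. Between 3 d and 1.5 d, Postn and Col12a1 were the 2 matrix genes called higher, and under the alternatives the count ran from 0 (without 1.5 d replicate 1 or 3 or 3 d replicate 2; 1 without 1.5 d replicate 2 or 3 d replicate 1) to 9 with DESeq2.

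Of 23 contractile genes tested, 13 were called higher and 0 lower at 3 d against NW by edgeR, with a median log2 change of 1.27, beside 12.0% higher and 9.15% lower among all genes. DESeq2 and limma-voom each called 15 higher and 0 lower, and 0 were lower at an unadjusted p under 0.05. Actn1, alpha-actinin 1, averaged 44.9 CPM at 3 d and 3.74 CPM in NW (log2 change 3.58, SE 0.322, edgeR adjusted p = 2.25e-05). Pdlim7 averaged 147.8 and 31.3 CPM (log2 change 2.24, edgeR adjusted p = 3.17e-05) and Cald1, caldesmon, 633.3 and 186.4 CPM (log2 change 1.76, edgeR adjusted p = 9.08e-05). Among those not called, Myl9 averaged 43.6 CPM at 3 d and 18.8 CPM in NW (edgeR adjusted p = 0.0626). Mylk averaged 9.60 and 11.1 CPM (edgeR adjusted p = 0.779), and Cnn1 0.616 and 0.719 CPM (edgeR adjusted p = 0.951). At 16 h against NW, 5 of the 23 contractile genes were called higher and 4 lower (2 lower without 16 h replicate 2), beside 13.5% higher and 11.2% lower among all genes, with a median log2 change of 0.27. Actn1, Pdlim7 and Cald1 were among the 5 higher, and the log2 change of Acta2 was −0.70; the difference between them and Acta2 was not tested. Tagln, transgelin, the smooth muscle protein often measured beside Acta2, averaged 11.7 CPM at 3 d and 2.62 CPM in NW. It was 4.45-fold higher at 3 d (edgeR adjusted p = 0.0129, lost without 3 d replicate 3, adjusted p = 0.0810). Per length, Acta2 had 259.0 TPM and Tagln 18.4 TPM at 3 d. Between 3 d and 1.5 d 0 of the 23 were called by edgeR, 4 higher by DESeq2 and 1 higher by limma-voom, and 10 were higher at an unadjusted p under 0.05. By edgeR 0.101% of all genes were called higher in that comparison. The median log2 change there was 0.49 for the 23 genes and 0.00 for all genes.

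Of 24 genes of TGF-beta signalling, 10 were called higher and 0 lower at 3 d against NW by edgeR, with a median log2 change of 0.71, beside 12.0% higher and 9.15% lower among all genes. Without 3 d replicate 2, 5 were called higher. DESeq2 called 11 higher, limma-voom 9, each with 0 lower, and 1 gene was lower at an unadjusted p under 0.05. Lrrc32, which displays latent TGF-beta on the cell surface, averaged 211.6 CPM at 3 d and 37.5 CPM in NW (5.64-fold, edgeR adjusted p = 3.69e-05). Inhba, the activin A subunit, averaged 342.8 and 13.4 CPM (25.5-fold, edgeR adjusted p = 0.000408). Of 11 genes of the SRF and YAP pathways tested, edgeR called 2 higher and 2 lower at 3 d against NW, where the shares of all genes were 12.0% and 9.15%. DESeq2 and limma-voom each called 2 higher and 3 lower, and 3 were higher and 3 lower at an unadjusted p under 0.05. The 2 lower by edgeR were Srf, 30.3 CPM at 3 d and 109.3 CPM in NW (3.60-fold lower, edgeR adjusted p = 0.00114), and Yap1, 41.1 and 85.5 CPM (2.08-fold lower, edgeR adjusted p = 0.00216). Of the 2 higher by edgeR, Tead2 averaged 9.21 CPM at 3 d and 2.84 CPM in NW (edgeR adjusted p = 0.00847). Ankrd1, a known target of YAP, was the other and had no counts in NW. Ankrd1 averaged 2.01 ± 1.67 CPM at 3 d (SD, n = 3), with libraries from 0.0811 to 2.97 CPM. The mean was at least 57.1-fold higher with that floor, but the lowest 3 d library lay near the floor of 0.0351 CPM. Fitted on the 3 d and NW libraries alone, 1 gene of this list was called higher.

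Fap and its relative Dpp4 are near each other on chromosome 2, on the same strand and 88704 bases apart. Both were low at 16 h, as was Lrrc17 on chromosome 5, and a part of their position in this was not tested. Ifih1, 21771 bases from Fap, averaged 17.9 CPM at 16 h and 20.6 CPM in NW. Of 8 marker genes of resting fibroblasts, Dpp4 among them, 7 were called lower and 0 higher at 16 h against NW. The shares of all genes were 11.2% lower and 13.5% higher. Dpp4, dipeptidyl peptidase 4, a surface protease also used as a marker of mouse skin fibroblasts, averaged 67.2 ± 0.759 CPM at 16 h and 316.9 ± 96.6 CPM in NW (SD, n = 3 each; log2 change −2.24, edgeR adjusted p = 0.000867). At 3 d Dpp4 averaged 148.6 ± 59.0 CPM (log2 change against NW −1.09, edgeR adjusted p = 0.0398), while Fap was above its NW level. That Dpp4 call was lost without NW replicate 1 or 3, 16 h replicate 1 or 2, 1.5 d replicate 2, or 3 d replicate 1 or 3, and when only the 3 d and NW libraries were fitted, with adjusted p up to 0.152. In CPM, not divided by length and so read between groups alone, Fap was 8.19%, 6.85% and 7.26% of Dpp4 in NW, 6.45%, 14.8% and 19.0% at 16 h, 53.9%, 40.2% and 19.1% at 1.5 d, and 40.6%, 39.1% and 58.2% at 3 d. All 3 d libraries and all 1.5 d libraries were above all NW libraries in this share. Of the related proteases, Prep, prolyl endopeptidase, averaged 139.4 CPM at 3 d and 65.5 CPM in NW (log2 change 1.09, edgeR adjusted p = 0.00189). Dpp8 averaged 72.0 and 34.9 CPM with an edgeR adjusted p of 0.0495, and Dpp9 78.0 and 47.3 CPM with 0.0559, and the call of Dpp8 was lost under 12 of 20 alternatives.

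**Figure D5:**
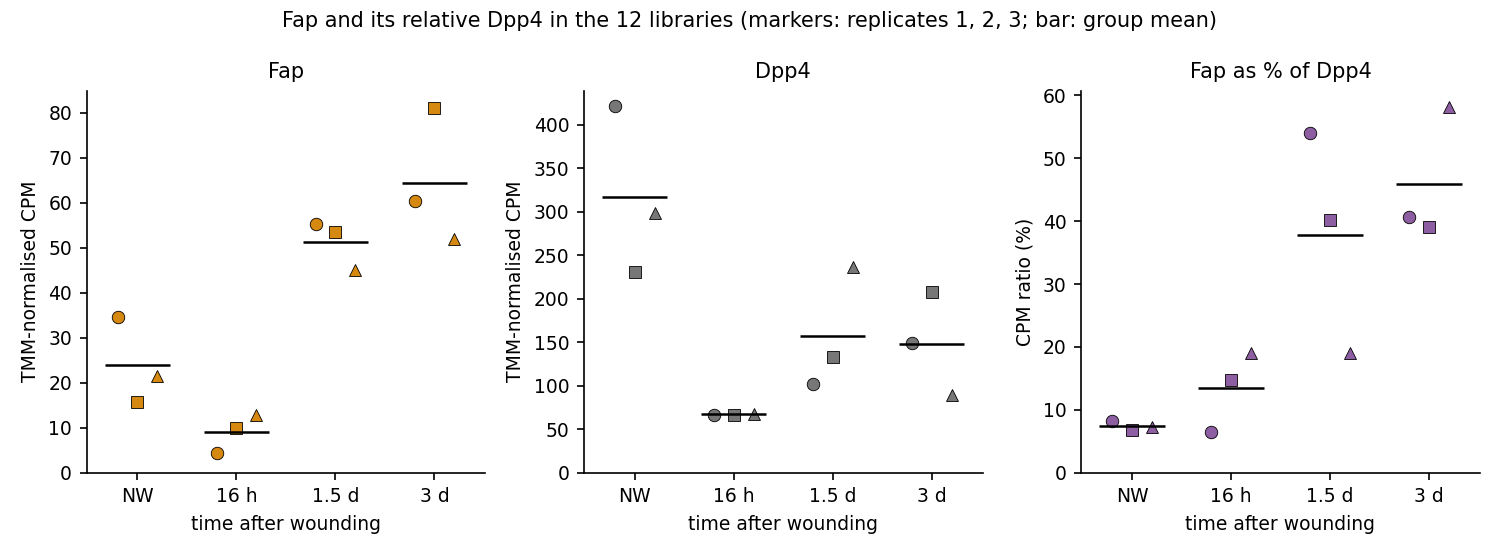
Levels of Fap and of its relative Dpp4 in each library, in TMM-scaled CPM on linear axes from 0, and Fap as a percentage of Dpp4, with the 3 replicates of each group as markers and the group mean as a bar. The mean of Dpp4 is highest in NW (316.9 CPM) and that of Fap at 3 d (64.5 CPM), both means are lowest at 16 h, and the percentage is 39.1% to 58.2% at 3 d and 6.85% to 8.19% in NW.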

How the data were processed

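RNA was measured in 12 libraries of sorted fibroblasts (polyA RNA, SMART-Seq v4 cDNA and Nextera XT libraries, paired-end, without strand). Per the file headers, the authors counted read pairs over exons by gene symbol with featureCounts 2.0.0 and a refGene annotation of mm10, and the deposited values are raw counts per gene; fragments that map to several places or genes are not counted by default. STAR, SAMtools, Subread and Partek are named, without versions, in the submitters' processing notes. The exon length deposited beside the counts was used for TPM.

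Genes were filtered with filterByExpr (14901 kept), scaled by TMM and fitted by group over all 12 libraries with the robust quasi-likelihood test of edgeR 4.0.16 in R 4.3.3; the p-value of each gene was adjusted by Benjamini-Hochberg over these genes, and called under 0.05. Where no tool is named beside an adjusted p, it is edgeR's. Standard errors are the log2 change over the square root of F, so they are approximate, and log2 CPM used a prior count of 2. The code of the fit was tested on counts simulated with the same spread for every gene, a simpler setting than these libraries. The 3 mice of a group are separate animals; within groups log2 CPM correlated at 0.916 to 0.956, and the spread between libraries was at least 85.9 times that of counting. Bounds against a group with no counts cover counting error only.

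The 5 genes and the gene lists were chosen with earlier results of these data known. Genes named beside them are, by rule, the 5 most alike in course for each member, the 3 with the smallest p at 3 d against NW in each list (plus Postn, Tagln and Dpp4), the actins, the proteases related to Fap, the defining mural genes and genes next to the members. Some genes that this rule names are not reported here. Alternatives were 20: other scaling (DESeq2 1.42.0 size factors, total counts), other filters, limma-voom (limma 3.58.1), DESeq2, a replicate block, only the 2 groups compared, and each library left out. Promoters are from RefSeq (GRCm38.p6).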

Additional observations from a re-analysis of the deposited data

How the results depend on the processing

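For the 5 genes, 374 of 420 tested values under the alternatives kept their direction and their side of the threshold, as did 966 of 1017 for the other named genes, and all 180 untested values of the members stayed within the spread between libraries. The sign of Lrrc15 at 16 h against NW was reversed with limma-voom (log2 change 0.065, adjusted p = 0.965) and ran from −0.75 to 0.32 over fits with a library left out. Calls lost were those of Fap at 16 h against NW with only the 2 groups fitted (−1.41), of Fap at 1.5 d against NW with DESeq2 size factors (1.08) and the replicate block (1.09, adjusted p = 0.0863), of Acta2 at 3 d against 1.5 d with only the 2 groups (2.54) and of Lrrc15 there without a filter (3.66). Cthrc1 at 3 d against 1.5 d was called without a filter (1.59), with DESeq2 (1.59) and with limma-voom (1.64). With 1 library left out, log2 changes ran from 0.91 to 1.54 for Cthrc1 and from −1.75 to −1.01 for Fap at 16 h against NW, from 0.87 to 1.48 for Fap at 1.5 d and from 1.21 to 1.81 at 3 d against NW, and at 3 d against 1.5 d from 2.25 to 3.22 for Acta2, 3.43 to 3.93 for Lrrc15 and 1.34 to 1.94 for Cthrc1. Over all genes, calls at 16 h, 1.5 d and 3 d against NW numbered 3687, 3647 and 3147, with 2249 to 3773, 2392 to 3802 and 1826 to 3269 when a library was left out. At 1.5 d against 16 h there were 426 (147 to 433 with a library left out, 211 with the replicate block, 1192 with DESeq2), at 3 d against 16 h 1420 (726 to 1515, and 2367 with DESeq2), and at 3 d against 1.5 d 21 (2 to 29, and 51 with total-count scaling, 51 without a filter, 195 with DESeq2 and 74 with limma-voom). The cause of these differences was not tested. Libraries of the same replicate number did not pair: deviations of the 18 such pairs correlated at −0.172 to 0.168, over 0.1 in 2, and the block changed no other call of the members. Depth limits the genes near 1 CPM, such as Myh11 and Fbxl13, where 3 counts are 0.069 to 0.114 CPM.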
